A study of Mus musculus with 4 samples.

Results

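Cyclins that drive the mouse cell cycle were examined in lineage-negative bone marrow cells with and without a deletion of Atad3a, which encodes an ATPase of the inner mitochondrial membrane. The set holds 10 genes: the D-type cyclins Ccnd1, Ccnd2 and Ccnd3, the E-type cyclins Ccne1 and Ccne2, the A-type cyclin Ccna2, the B-type cyclins Ccnb1 and Ccnb2, cyclin F (Ccnf) and cyclin G2 (Ccng2). They were taken by name, from the gene names in the scanner table or the platform annotation, and 19 of the 45281 probes on the array carry one of these names. The D-type cyclins have 10 of the 19 probes, the E, A and B types together 6, cyclin F 2 and cyclin G2 1. Of the 19, 16 probes of 9 genes were detected on at least 2 arrays and could be tested. The single Ccnb2 probe was among the other 3.

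Controls carried floxed Atad3a alleles (Atad3afl/fl), and the deletion group carried the same alleles with the Mx1Cre transgene (Atad3afl/flMx1Cre). Both groups received poly I:C, a synthetic double-stranded RNA that induces interferon, and were taken on day 12 after it. Mx1Cre expresses Cre recombinase from the Mx1 promoter, which interferon switches on in many cell types besides blood cells. Only the deletion group carried it, so what Cre does and what losing Atad3a does cannot be told apart. Each group has 2 samples with 1 single-colour bead array each. The labels give no age, nor whether the replicates of a group are separate animals, and the p-values rest on a spread between samples that may be only technical.

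Detected probes made up 37.5% to 39.9% of each array, and mean non-normalized signals were 376 to 419. Atad3a, measured by 1 probe, read 10.91 and 11.05 in controls and 9.99 and 9.83 after deletion in log2 normalized intensity, the scale of all levels below. Both deletion arrays lay under both controls, by 2.10-fold (log2 change -1.07, standard error (SE) 0.13, limma adjusted p = 0.00861; without deletion replicate 2, -0.99 and adjusted p = 0.0643). Whether the probe lies in the deleted part was not determined here, and outside it the probe checks nothing. Of markers of early progenitors, Kit (10.78 and 10.90 in controls) and Cd34 (7.37 and 7.27) were detected on all 4 arrays. Markers of cells that lineage depletion is meant to remove were present as well, among them Cd3g of T cells at 9.84 and 10.02 in controls. In bulk RNA, fewer cells of a type and less RNA per cell cannot be told apart, which holds for every change below.

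Cyclins are the regulatory subunits of cyclin-dependent kinases (CDKs). D-type cyclins bind CDK4 and CDK6 in response to growth factor signals and start phosphorylation of the retinoblastoma protein, which frees E2F factors to switch on the genes of DNA synthesis, the E-type cyclins among them. Cyclin E with CDK2 then opens S phase, cyclin A carries the cell through S phase and G2, and the B-type cyclins with CDK1 drive mitosis. Cyclins F and G2 differ in kind: cyclin F is a substrate receptor of an SCF ubiquitin ligase, and cyclin G2 is an atypical cyclin associated with cell cycle arrest. In mice, cyclin D3 is needed for the expansion of precursor B cells and for the timed divisions of red cell precursors.

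Ccnd1 and Ccnd2 rose, by 5.78-fold and 3.87-fold, and Ccne1, Ccna2, Ccnb1 and Ccnf fell, together with Ccnd3, the remaining D-type cyclin. Of the 9 tested genes 2 rose, 5 fell and 2 did not pass (Ccne2 and Ccng2), at a limma adjusted p under 0.05, against 14.8% of all 10583 genes tested called higher, 14.1% lower and 28.9% either way. Of the 16 tested probes 6 rose and 6 fell, against 14.0% and 13.0% of all tested probes, 27.0% together. On the normalized scale the groups did not overlap for 8 of the 9 genes, 2 higher and 6 lower. Of all genes 37.0% were higher, 35.9% lower and 72.9% either way without overlap. Ccna2, undetected on both deletion arrays, entered the test through the control arrays alone. The median log2 change of the 9 was -0.83, against 0.0019 over all genes. A permutation over 2 against 2 arrays cannot give a p below 0.333, so all p-values here come from the fit across all probes.

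**Figure D1:**
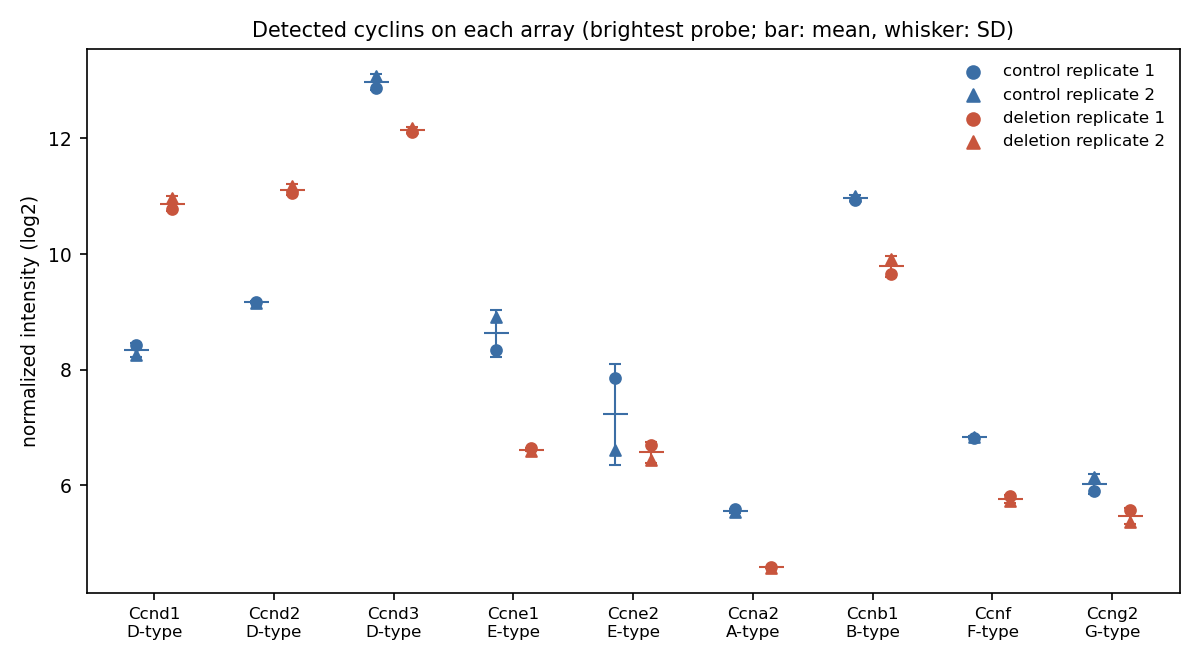
Normalized log2 intensity (vertical axis) of the 9 detected cyclins by their brightest probe, with 1 point per array, blue for control and red for deletion, the bar at the mean and the whisker 1 SD (n = 2). Ccnd1 and Ccnd2 are higher on both deletion arrays, Ccnd3, Ccne1, Ccna2, Ccnb1 and Ccnf are lower, and the groups overlap for Ccne2.

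Promoter sequences of 3 cyclins that fell are shown, since mitotic genes such as Ccnb1 and Ccnf commonly share a pair of elements near their start sites: the CHR (letters TTTGAA), bound by the MuvB core of the DREAM complex, and the CCAAT box, bound by NF-Y. The window of Ccne1, a gene of the G1 to S transition, stands beside them. The RefSeq table used here (GRCm38.p6) holds windows from 250 bases before to 50 after a start for 6 of the 10 cyclins, 7 windows in all. Those of Ccnd1, Ccnd2, Ccne2 and Ccna2 were not used here. Capitals mark TTTGAA and CCAAT on either strand, and each window reads 5′ to 3′ along its gene's strand, the minus strand in all 3.
Ccnb1, chr13:100786437-100786736: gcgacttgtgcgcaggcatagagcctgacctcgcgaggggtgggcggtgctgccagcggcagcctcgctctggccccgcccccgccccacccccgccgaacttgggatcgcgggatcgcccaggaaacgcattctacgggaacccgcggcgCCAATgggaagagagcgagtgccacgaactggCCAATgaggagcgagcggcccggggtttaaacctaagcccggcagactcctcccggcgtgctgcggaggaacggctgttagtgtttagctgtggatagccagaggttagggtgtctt
Ccnf, chr17:24251360-24251659: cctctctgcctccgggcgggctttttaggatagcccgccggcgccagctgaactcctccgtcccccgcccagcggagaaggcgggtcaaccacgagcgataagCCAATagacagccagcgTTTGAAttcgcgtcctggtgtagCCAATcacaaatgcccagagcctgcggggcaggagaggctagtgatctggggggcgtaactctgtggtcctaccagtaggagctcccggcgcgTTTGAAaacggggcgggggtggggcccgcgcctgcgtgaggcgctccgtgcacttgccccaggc
Ccne1, chr7:38107441-38107740: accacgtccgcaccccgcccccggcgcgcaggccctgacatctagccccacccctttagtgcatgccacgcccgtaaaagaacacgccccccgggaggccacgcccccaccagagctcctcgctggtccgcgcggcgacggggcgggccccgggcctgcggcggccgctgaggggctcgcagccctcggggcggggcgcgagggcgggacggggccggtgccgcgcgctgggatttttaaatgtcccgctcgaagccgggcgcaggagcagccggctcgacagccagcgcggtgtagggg

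The Ccnf window holds both elements without overlap, TTTGAA starting at -130 and -14 and CCAAT starting at -147 and -107 from the annotated start. That of Ccnb1 holds CCAAT at -99 and -67, without TTTGAA. Neither motif occurs in the Ccne1 window. Among the windows not printed, Ccnb2 has 2 matches to TTTGAA and 3 to CCAAT, 1 of the 2 Ccnd3 windows has 1 CCAAT, and Ccng2 has none of either. Of all 32851 windows of this length, 17.9% hold TTTGAA and 37.4% hold CCAAT. The E2F letters TTTGGCGC (0.514% of all windows) and TTTCCCGC (1.07%), the composite C/EBP-ATF letters TGATGNAA (3.97%), the E box CACGTG (7.15%) and the forkhead letters TGTTTGC (5.07%) were searched on both strands with no match in the 7 cyclin windows, and forkhead TGTTTAC (3.65%) matched 1 Ccnd3 window. A match is a run of letters and not a shown binding site, and a missing match says only that these letters are not in the window.

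The rise of Ccnd1 was the largest change among the cyclins. Cyclin D1 couples mitogen signals to CDK4 and CDK6. Its brightest probe read 8.43 and 8.26 in controls and 10.78 and 10.97 after deletion. Both deletion arrays lay more than 2 log2 units above both controls. The means were 8.34 ± 0.12 (SD, n = 2) and 10.87 ± 0.13 (SD, n = 2), a log2 change of 2.53 (SE 0.14, 95% interval 2.17 to 2.89, adjusted p = 0.00176). The other Ccnd1 probes moved alike, with log2 changes of 2.36 (SE 0.14) and 2.67 (SE 0.22). The dimmest of the 3 went from a signal of 134 and 128 before normalization, just above the lowest detected signals of 104 to 120 on these arrays, to 360 and 466.

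Ccnd2, the D-type cyclin prominent in blood progenitors and lymphocytes, rose as well. By its brightest probe it read 9.17 and 9.15 in controls and 11.05 and 11.18 after deletion. The control arrays were nearly identical, and both deletion arrays lay clearly above them. The log2 change was 1.95 (SE 0.12, 95% interval 1.64 to 2.26, adjusted p = 0.00207), and a second probe assigned to the RefSeq transcript gave 1.93 (SE 0.12). Another probe, which the platform table assigns to a cDNA clone, rose less, by 1.39 (SE 0.18, adjusted p = 0.0104). The fourth, assigned to another cDNA clone, was detected on none of the 4 arrays, with non-normalized signals of 102 to 118.

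Ccnd3 went the opposite way. Its brightest probe read 12.87 and 13.07 in controls and 12.11 and 12.18 after deletion. Both deletion arrays lay below both controls, by 1.77-fold (log2 change -0.83, SE 0.13, 95% interval -1.17 to -0.49, adjusted p = 0.0154). The call was lost without deletion replicate 1 (adjusted p = 0.0968) or deletion replicate 2 (0.0891), and with the mean of all Ccnd3 probes (log2 change -0.37, adjusted p = 0.232). The platform table assigns its 2 dimmer probes to another RefSeq transcript of the gene, and neither passed. One read 8.73 and 6.15 in controls, and 7.66 and 7.63 after deletion. Here the controls disagreed with each other, and the deletion arrays lay between them (log2 change 0.20, SE 0.85, 95% interval -2.01 to 2.42). The other was detected on the control arrays only and did not pass (measured log2 change -0.48, SE 0.22, 95% interval -1.05 to 0.10, adjusted p = 0.169). Its non-normalized signals overlapped, at 105 and 129 in controls and 118 and 116 after deletion.

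**Figure D2:**
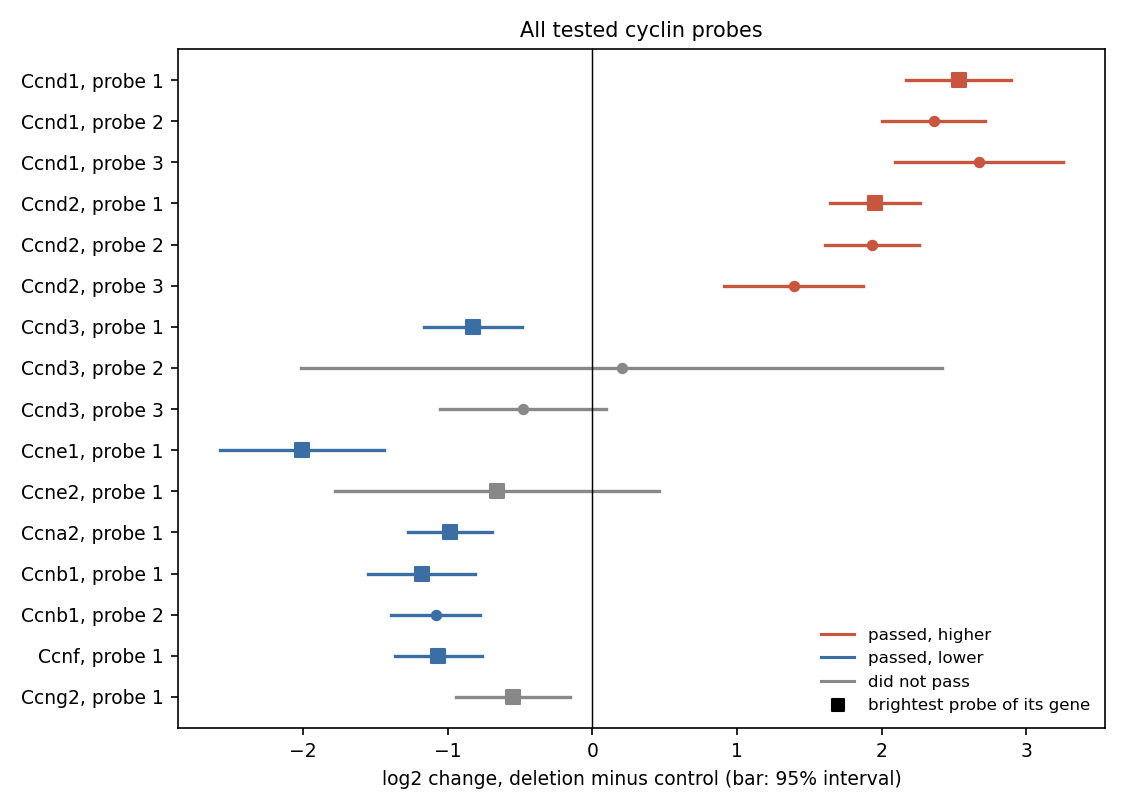
Log2 change, deletion minus control (horizontal axis), of each of the 16 tested cyclin probes, with its 95% interval, squares marking the brightest probe of a gene. The 3 Ccnd1 and 3 Ccnd2 probes lie to the right of 0, the widest interval belongs to the second Ccnd3 probe, and the probes of Ccne1, Ccna2, Ccnb1 and Ccnf lie to the left of 0.

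Among the E-type cyclins Ccne1 fell and Ccne2 did not pass. Ccne1, which activates CDK2 at the entry to S phase, read 8.34 and 8.91 in controls and 6.64 and 6.59 after deletion. Its deletion arrays were close together and both lay well below the lower control. The fall was 4.02-fold (log2 change -2.01, SE 0.22, 95% interval -2.57 to -1.44, adjusted p = 0.00655), the largest among the cyclins. With no background correction it was smaller, at a log2 change of -1.41 (adjusted p = 0.00354), and with the authors' processed values it was -1.34 (0.00491). Ccne2 read 7.85 and 6.61 in controls and 6.70 and 6.44 after deletion. A single array, control replicate 1, stood high, and the other control lay between the deletion arrays. The log2 change was -0.66 (SE 0.43, 95% interval -1.78 to 0.46, adjusted p = 0.298). Without control replicate 1 it was -0.04 (adjusted p = 0.871), and without control replicate 2 it was -1.28 and passed (0.0323), a fit in which the high array is the only control and the deletion arrays alone supply the spread.

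Ccna2, the cyclin of S phase and G2, was measured by 1 dim probe. Its non-normalized signals were 121 and 126 on the control arrays, where it was detected, and 110 and 109 on the deletion arrays, where it was not. The groups did not overlap. On the background-corrected scale Ccna2 was at least 1.53-fold lower after deletion (adjusted p = 0.00738), with measured log2 means of 5.56 ± 0.04 (SD, n = 2) and 4.58 ± 0.01 (SD, n = 2). That bound holds on this scale only. The measured log2 change was -0.98 there, -0.35 with no background correction (adjusted p = 0.0212) and -0.31 with the authors' processed values (0.0255), both smaller than the bound. The call was lost without deletion replicate 1 (0.0580) or 2 (0.0615).

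Ccnb1, whose product activates CDK1 at mitotic entry, fell by both of its probes. The brighter read 10.93 and 11.00 in controls and 9.65 and 9.92 after deletion. The dimmer read 10.41 and 10.51, and 9.33 and 9.42. Both deletion arrays lay below both controls on each probe. The log2 changes were -1.18 (SE 0.14, 95% interval -1.55 to -0.81, adjusted p = 0.00842) and -1.08 (SE 0.12, adjusted p = 0.00674), and the call on the brighter was lost without deletion replicate 1 (0.0543). Both probes are named for Ccnb1 by the array's own gene name only. Ccnb2, which acts beside cyclin B1, could not be assessed: its only probe gave 80.2 and 88.2 in controls and 109 and 97.9 after deletion before normalization, and was detected on none of the 4 arrays.

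Ccnf fell by its 1 detected probe, from 6.83 and 6.84 to 5.82 and 5.72. The groups did not overlap. The fall was 2.09-fold (log2 change -1.07, SE 0.11, 95% interval -1.36 to -0.77, adjusted p = 0.00655), and it missed the threshold without deletion replicate 2 (0.0573). The log2 change was smaller with no background correction (-0.52), with normexp at an offset of 50 (-0.66) and with the authors' processed values (-0.45), and passed in each. The second Ccnf probe, assigned to a cDNA clone, was detected on none of the 4 arrays. Ccng2 read 5.90 and 6.14 in controls and 5.57 and 5.37 after deletion. The groups were apart by little, and the log2 change of -0.55 (SE 0.15, 95% interval -0.94 to -0.16) did not pass (adjusted p = 0.0554). Before normalization the Ccng2 signals overlapped, at 132.8 and 152.5 in controls and 136.9 and 130.5 after deletion.

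**Figure D3:**
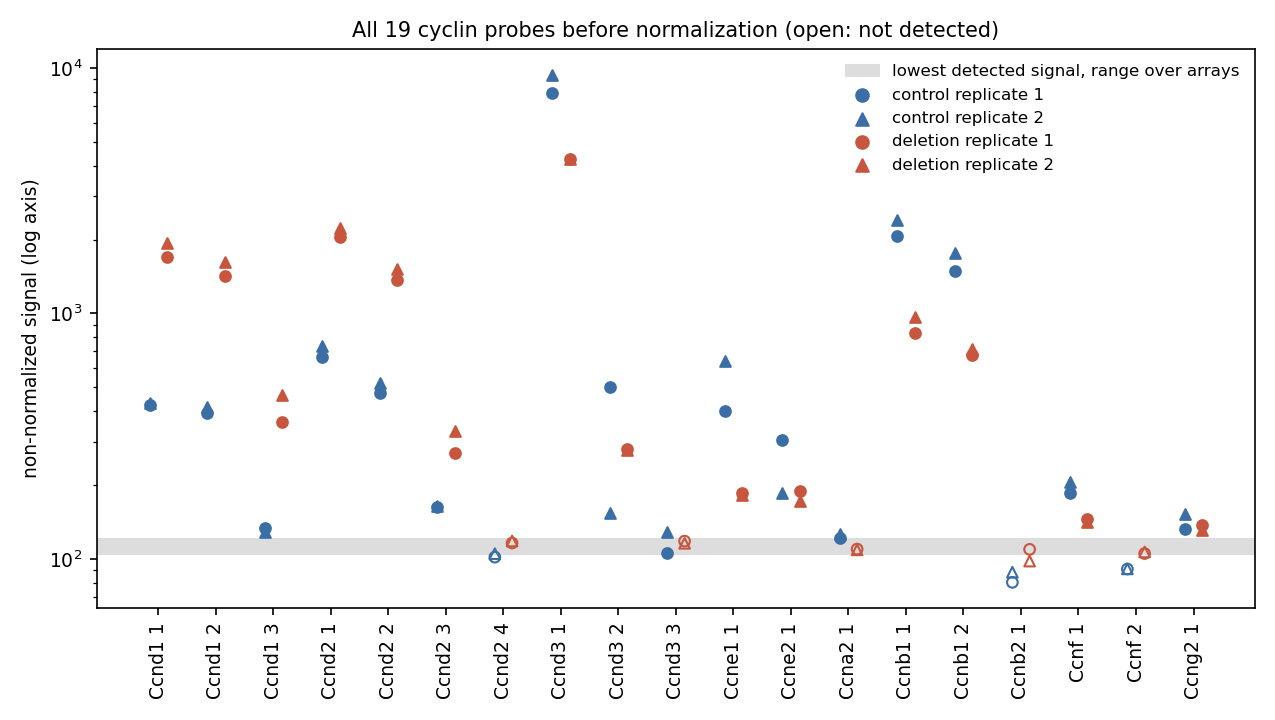
Non-normalized signal (vertical log axis) of all 19 cyclin probes on each array, in the order of brightness within a gene, open symbols where a probe was not detected, and a grey band for the lowest detected signal on the 4 arrays (104 to 120). The probes of Ccnb2, the fourth of Ccnd2 and the second of Ccnf stay in or near the band, as does Ccna2.

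Set side by side, the D-type cyclins had a median log2 change of 1.95 (from -0.83 to 2.53, 3 genes), and the 4 tested E, A and B type cyclins one of -1.08 (from -2.01 to -0.66). The D-type median, which is the value of Ccnd2, lay 3.03 log2 units above the other. The second median takes the measured value of Ccna2, -0.98, although Ccna2 was undetected on both deletion arrays. Its bound, at least 1.53-fold lower, was not used there. With detection required on all 4 arrays, where Ccna2 is not tested, the difference was 3.13. Relative to the control means, the D-type median was 1.89 and 2.02 on the deletion arrays and that of the E, A and B types -1.14 and -1.02, so both deletion arrays showed the split. No p is given for this difference between chosen lists. The D-type cyclins did not move as 1 group: 2 of the 3 rose, and Ccnd3 fell, as did Ccne1, Ccna2 and Ccnb1. Ccnd3 was the brightest of the 3. Their summed normalized intensity overlapped between the groups, at 8422 and 9494 in controls and 8314 and 8959 after deletion. That of the 4 tested E, A and B type cyclins was 2554 and 2678 against 1032 and 1175.

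Socs2 and the stem cell antigen gene Ly6a had patterns close to that of Ccnd1. Over the 4 arrays, with each gene's own mean subtracted, the smallest distances to Ccnd1 belonged to Ly6a (0.126), Socs2 (0.170), a feedback inhibitor of cytokine signalling, and Car12 (0.191), a membrane carbonic anhydrase. The smallest distances to Ccne1 belonged to Smtnl2 (0.160), Pip5k1b (0.172), a phosphoinositide kinase, and Lmcd1 (0.175). Distances over 4 arrays in 2 groups mainly measure the size of the group difference and the spread within groups.

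Among the kinase partners of the cyclins the mitotic kinase gene Cdk1 fell, and the partners of the D-type cyclins did not pass. Cdk1 read 11.36 and 10.92 in controls and 10.33 and 10.37 after deletion. All 4 values kept the groups apart (log2 change -0.79, SE 0.18, adjusted p = 0.0375). Cdk4 had a log2 change of 0.10 (SE 0.11, adjusted p = 0.554) and Cdk2 one of -0.28 (SE 0.13, adjusted p = 0.169). Cdk6, undetected on both control arrays, did not pass (at least 1.36-fold higher, adjusted p = 0.0633). Of 16 tested CDK genes 1 rose, the cyclin Y partner Cdk14 (log2 change 0.80, SE 0.18), and 3 fell, Cdk1, Cdk16 (-0.83, SE 0.13), which also binds cyclin Y, and Cdk8 of the Mediator complex (-0.56, SE 0.12), with a list median of -0.03. Over all genes 28.9% were called, so 4 of 16 is no larger a share. All 4 calls were lost in the fit without deletion replicate 1 and in the fit without deletion replicate 2.

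Of the CDK inhibitors Cdkn1a rose and Cdkn2c fell. Cdkn1a, the inhibitor p21, which binds cyclin E, A and D complexes, had a control mean of 6.95 ± 0.18 (SD, n = 2) and a deletion mean of 10.22 ± 0.31 (SD, n = 2). Both deletion arrays lay far above both controls, by 9.65-fold (log2 change 3.27, SE 0.20, adjusted p = 0.00208), and dimmer Cdkn1a probes gave 2.72 and 2.00. Cdkn2c, the CDK4 and CDK6 inhibitor p18, read 9.19 and 9.25, and 7.91 and 7.93. It fell by its brightest probe (log2 change -1.30, SE 0.11, adjusted p = 0.00425), and of its other probes 1 fell (-0.95) and 1 did not pass (-0.30, adjusted p = 0.450). Cdkn3, a phosphatase that acts on CDKs, fell (-0.84, SE 0.16). In all, 1 of 5 tested inhibitors rose and 2 fell, where 14.8% of all genes rose and 14.1% fell. Fewer inhibitors fell in each fit with 1 array left out. Cdkn1b, the inhibitor p27, could not be tested.

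Over all genes 14.8% rose and 14.1% fell, and the counts of the lists below are to be read against these shares. In the RB and E2F list 4 of 11 tested genes fell and 0 rose by limma, with 1 higher at an unadjusted p under 0.05 (median -0.31): E2f2 (log2 change -2.14, SE 0.17), the dimerization partner gene Tfdp2 (-1.79, SE 0.11), Rb1, the retinoblastoma protein phosphorylated by cyclin D and cyclin E kinases (-1.31, SE 0.11), and E2f4 (-0.96, SE 0.14). Of 11 tested CDK phosphatases, kinases and MuvB-linked genes 3 fell and 0 rose, also at an unadjusted p under 0.05 (median -0.30), namely Cdc25b (-1.38, SE 0.13) and Cdc25c (-1.07, SE 0.12), phosphatases that activate CDKs, and Mybl2 (-1.25, SE 0.13), the MYB factor that joins MuvB in S phase. Of 21 tested subunits and adaptors of the ubiquitin ligases that degrade cyclins, 3 fell and 0 rose, and 8 fell and 0 rose at an unadjusted p under 0.05 (median -0.27). That is near the share of all genes that fell. The 3 were Btrc (-1.82, SE 0.12), and Cdc20 (-0.64, SE 0.14) and Fzr1 (-0.56, SE 0.12), the activators of the anaphase-promoting complex. Dimmer probes of Cdc20 (0.11, adjusted p = 0.857), Mybl2 (-0.59, 0.0881) and Fzr1 (-0.58, 0.106) did not pass. The count for the ligases was 7 with no background correction, with median scaling and with the authors' processed values, and 1 with the replicate block or when control replicate 1 or either deletion array was left out.

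Genes whose products cyclin F is known, mainly from human cells, to mark for destruction fell at the mRNA level with Ccnf in 5 of 7 cases, and 0 rose, also at an unadjusted p under 0.05 (median -1.11). The licensing factor gene Cdc6 read 10.92 and 10.82 in controls and 9.19 and 9.18 after deletion (log2 change -1.68, SE 0.11, adjusted p = 0.00254). Rrm2, a subunit of ribonucleotide reductase, fell by 1.63 (SE 0.16) and the centriole gene Ccp110 by 1.11 (SE 0.12) on the log2 scale, and Mybl2 and Fzr1 are given above. Without deletion replicate 1 or deletion replicate 2 the count was 3.

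Further markers of dividing cells fell as well, in a list that shares Rrm2 with that of the cyclin F substrates. Of 22 tested genes of DNA replication and mitosis 15 fell and 0 rose, also at an unadjusted p under 0.05 (median -0.72). Mki67, the Ki-67 antigen, read 11.87 and 11.92 in controls and 10.81 and 10.87 after deletion, with the groups well apart (log2 change -1.06, SE 0.11, adjusted p = 0.00643). Mcm7, a subunit of the replicative helicase, fell by 1.22 (SE 0.12) on the log2 scale, with a dimmer Mcm7 probe at 0.81 that did not pass (adjusted p = 0.253). Ttk, a spindle checkpoint kinase undetected on both deletion arrays, was at least 2.01-fold lower (adjusted p = 0.0146). The count dropped to 2 when deletion replicate 1 was left out and to 1 when deletion replicate 2 was.

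**Figure D4:**
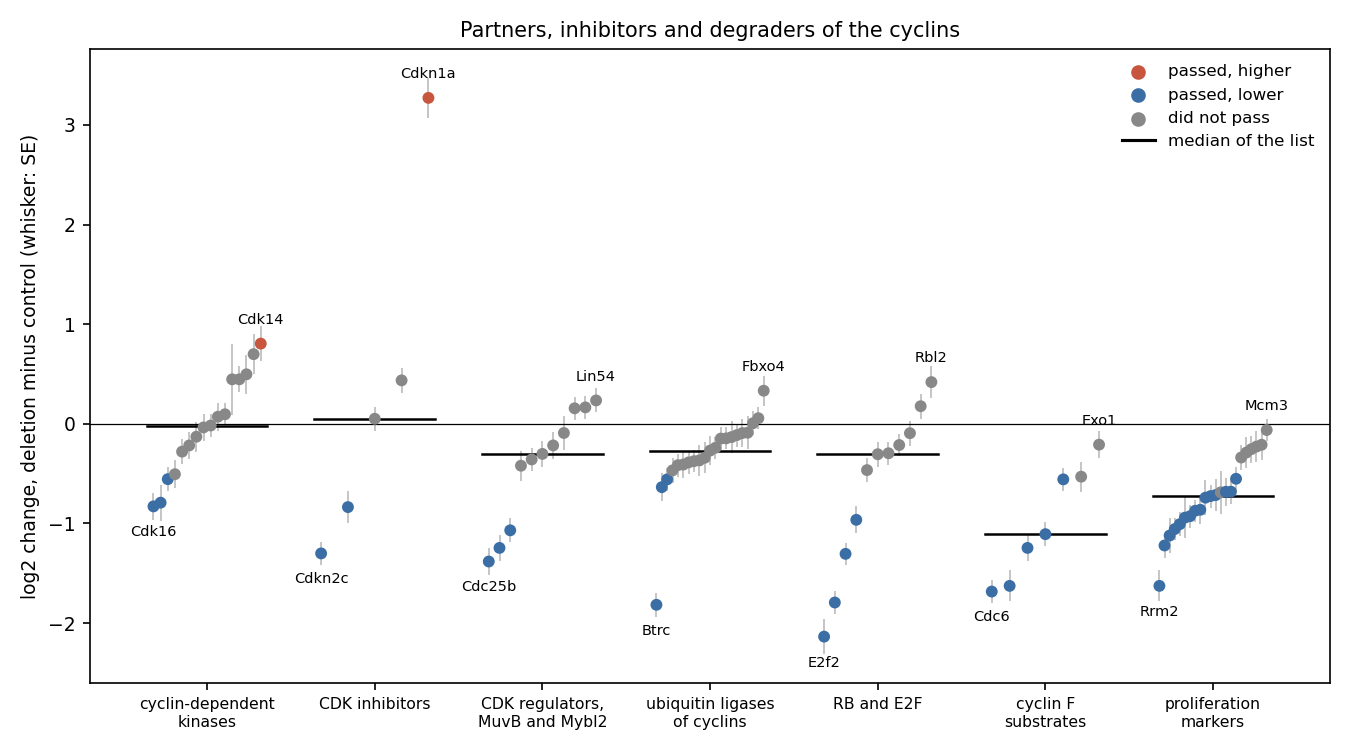
Log2 change, deletion minus control (vertical axis), of each tested gene in 7 lists around the cyclins, with its SE as whisker and the list median as a black bar. Cdkn1a stands alone at 3.27, and the medians of the cyclin F substrate and proliferation lists lie at -1.11 and -0.72.

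Among 11 tested genes of other cyclins and cyclin-linked proteins 2 rose, near the 14.8% of all genes that did. Ccng1, an atypical cyclin and p53 target (log2 change 0.59, SE 0.12, adjusted p = 0.0260), and Cables1, an adaptor of CDKs (0.51, SE 0.12, adjusted p = 0.0444), rose, and 0 fell, 3 at an unadjusted p under 0.05 (median -0.25). With median scaling in place of quantile normalization 0 rose and 2 fell, and 1 rose with the replicate block. The number that fell was 3 with the authors' processed values and 2 with no background correction. It was 1 with normexp at an offset of 50 and with an intensity trend in the variance model. Fewer rose when control replicate 1 or either deletion array was left out. The other Ccng1 probes gave 1.15 and 0.85. Myc, a transcription factor upstream of D-type cyclin genes, did not pass (0.12, SE 0.30, adjusted p = 0.781). Foxo1 (-0.95, SE 0.19, adjusted p = 0.0254) and Foxo3 (-0.58, SE 0.15, adjusted p = 0.0479), forkhead factors that repress D-type cyclin genes and activate Ccng2 in other cell types, fell. In their list of 12 tested genes 2 rose and 2 fell (median -0.03), again near the shares of all genes. The stress-response pseudokinase gene Trib3 was among those that rose, at 5.56 (SE 0.16) by its brightest probe and 2.12 and 2.57 by dimmer ones. The number that fell was 1 under 7 of the 14 alternatives and 0 when either deletion array was left out.

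Markers of blood lineages moved on the same arrays, and their part in the cyclin changes was not tested. In the red cell list 13 of 14 tested genes fell and 0 rose, also at an unadjusted p under 0.05. The median was -4.07, partly from signals at background after deletion. With detection required on all 4 arrays 7 of the 8 genes then tested fell. The summed normalized intensity of the 14 genes was 70998 and 72852 in controls and 10165 and 3120 after deletion. In the B lymphoid list 12 of 13 fell and 0 rose by either p (median -2.58), with sums of 24109 and 23300 against 3076 and 3292. With detection required on all 4 arrays 8 of the 9 B lymphoid genes then tested fell. Slc4a1, an anion exchanger of red cells, read 13.64 and 13.84 in controls and 8.72 and 4.38 after deletion, where it was detected on 1 of the 2 arrays. The precursor B cell gene Vpreb3 had a log2 change of -6.35 (SE 0.33). Epb42, Hbb-b1 and Pax5 were not detected on the 2 arrays the test requires. In the opposite direction, 9 of 12 T and NK cell genes rose and 0 fell by either p (median 1.01, sums of 15115 and 15193 against 34079 and 27609). Cd247 was at 1.99 (SE 0.29) by its brightest probe. Its dimmer probes gave 0.66 (SE 0.14) and 0.54 (SE 0.22), and the last did not pass (limma adjusted p = 0.132). Cd8a was not detected on 2 arrays. With detection required on all 4 arrays 9 of the 11 T and NK cell genes then tested rose. Fewer of the list passed with either deletion array left out.

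Of 11 tested stem and progenitor genes 9 rose and 1 fell (median 1.04), Ly6a by 2.54 (SE 0.12) on the log2 scale, and the summed intensity was 5491 and 5610 against 10893 and 11293. The gene that fell was Kit (-0.82, adjusted p = 0.0345), a call lost in each fit with 1 array left out, with no detection filter and with the mean of all detected probes. Mecom, Flt3 and Hlf were not detected on 2 arrays. Angpt1, among those that rose, was undetected on both control arrays and entered the test through the deletion arrays alone. With detection required on all 4 arrays 6 of the 7 stem and progenitor genes then tested rose and 1 fell. Of 9 megakaryocyte genes 6 rose and 1 fell (median 1.25, Ppbp at 2.24, SE 0.35, sums of 1852 and 1812 against 2960 and 4182). Gp1bb, among those that rose, was undetected on both control arrays. Under the stricter detection filter 5 of the 8 megakaryocyte genes then tested rose and 1 fell. Granulocyte and monocyte genes had a median of 0.02, with 3 of 14 higher and 2 lower, near the shares of all genes. Irf8 (0.77) and Camp (0.76) were among those that rose, Elane (-3.13, SE 0.28) and Prtn3 (-0.75) fell, and the list had sums of 42195 and 44312 against 40010 and 39595. Of 9 plasma cell and stroma genes 3 rose and 1 fell (median 0.48, sums of 6319 and 5700 against 7751 and 10281). Both Xbp1 (1.25, SE 0.16), which rose, and Sdc1 (-1.46, SE 0.16), which fell, are plasma cell genes. The stroma genes Cxcl12 (0.88, SE 0.15) and Col1a2 (0.75, SE 0.17) rose, Col1a2 from undetected signals on both control arrays. Col1a1, Col3a1 and Lepr were not detected on 2 arrays. Under the stricter filter 2 of the 4 plasma cell and stroma genes then tested rose and 0 fell. The number that rose with 1 array left out was at its lowest 3 for stem and progenitor genes, 2 for megakaryocyte genes, and 0 for granulocyte and monocyte genes and for plasma cell and stroma genes, each without deletion replicate 2.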

How the data were processed

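Lineage-negative mouse bone marrow RNA from 2 control and 2 deletion samples, grouped and numbered by sample title, was measured on Illumina mouse WG-6 V2 arrays. The deposited scanner table gives a non-normalized signal intensity and a detection p-value per probe, per the file headers. GenomeStudio was used, per the submitters' processing notes; the sources used here give no version, background subtraction or bead filter. The deposited series matrix holds processed intensities with equal column medians (100.5 to 100.6) and the same lowest and highest values, as quantile normalization leaves them, and served as an alternative.

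In R 4.3.3, limma 3.58.1 corrected the background (normexp, controls inferred from detection p-values, offset 16), and signals were quantile normalized and log2 transformed. Probes with detection p under 0.05 on at least 2 arrays, 18367 in all, were fitted with lmFit and eBayes (residual df 2, prior df 2.72) and adjusted by Benjamini-Hochberg over all of them. Changes are deletion minus control. A gene is represented by its brightest tested probe. A probe undetected on both arrays of a group has only a bound, the bright group's mean against the dim group's mean. In the dim group each array counts with its lowest detected signal or the probe's own, whichever is higher. The bound leaves out the spread between arrays and holds on the background-corrected scale only. A check on simulated data required only that the median estimates of added changes lay near their true sizes. It set no limit on false calls. The platform table named 34885 probes, and the array's own names, matched to RefSeq symbols or synonyms, named 2467 more.

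Members and lists were chosen with earlier results of these data known. Named genes are the cyclins, Atad3a, other cyclins that passed, up to 4 of the farthest-moving genes that passed per list, and a fixed set (Cdk1, Cdk2, Cdk4, Cdk6, Cdkn1a, Cdkn1b, Cdkn2c, Myc, Mki67, Foxo3); Kit, Cd34 and dimmer probes were added after their values were seen. No cell type list was given a set test. Alternatives changed background correction, scaling, filter, variance model, values, probes and arrays. With 1 array left out, the lone array of its group is assumed to vary like the arrays of the other group.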

Additional observations from a re-analysis of the deposited data

How the results depend on the processing

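The directions of the 9 cyclin changes held in all 125 refits of single cyclins under the alternatives, of which 7 no longer passed and 4 newly passed (Ccng2 with cyclic loess, with detection p under 0.01 on all 4 arrays and with the mean of all detected probes, and Ccne2 without control replicate 2). Ccnd1 and Ccnd2 were the 2 cyclins called higher under every alternative. The number called lower was 5, 3 with a fold of at least 2, and 2 to 6 with 1 array left out, at 2 without either deletion array, and 6 with cyclic loess. With detection required on all 4 arrays and with the mean of all detected probes it was again 5, but Ccng2 took the place of Ccna2 in the first and of Ccnd3 in the second. The D-type median minus the E, A and B median, 3.03, was 2.57 with no background correction, 2.68 with normexp at an offset of 50, 2.95 with median scaling, 3.08 with cyclic loess, 2.94 with no detection filter, 3.13 with the stricter filter, 2.72 with the authors' processed values, 2.82 with the mean of all detected probes and 3.03 to 3.15 with 1 array left out. The cause of these shifts was not tested. The log2 change of Atad3a was -1.15 to -0.99 with 1 array left out.

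With the replicate block all 7 cyclin calls remained and the D-type median minus the other stayed at 3.03. Same-numbered deviations correlated at 0.0252 over detected probes, and with 2 per group the number is not known to pair samples. Over all genes 1562 were higher and 1497 lower, 1282 and 1188 with the block, and 300 to 1330 higher and 444 to 1386 lower with 1 array left out, lowest without deletion replicate 2. Of all calls 51.1% were higher, and 39.8% with median scaling, which moved the median of all genes to -0.10. Of 448 recomputed list counts 88 moved by over 1.5 times, 49 of them with 1 array left out. Ccna2, Ccng2 and Ccnf were dim, and their changes shrank with no background correction. So did those of Ccne1 (from -2.01 to -1.41) and Ccne2 (from -0.66 to -0.42). The part of signal over background in this was not tested.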
